A study of Homo sapiens with 4 samples.

Results

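The clustered protocadherin genes were taken as all protein-coding genes whose symbols start with PCDHA, PCDHB or PCDHG on chromosome 5 between the alpha and gamma ends of the locus. There were 53 of them, 15 alpha, 16 beta and 22 gamma, from 140786140 to 141512975 of hg38, over 726.8 kb. Of the 89239 listed pairs of 50 kb bins, 22 had at least 1 bin over such a gene. Of these, 15 were contacts within a bin and 7 were contacts between adjoining bins. The counts came from Micro-C in the established human neuroblastoma line SH-SY5Y. Micro-C joins and counts nucleosomes that lie close in space, after digestion with micrococcal nuclease. There were 2 libraries labelled TDP43KD, from cells with a stable lentiviral shRNA knockdown of TDP-43, an RNA- and DNA-binding protein. There were also 2 libraries labelled control, and the protocol names a shNC construct beside the one against TDP-43. Infected cells were selected with puromycin. A stable line is a selected population. Nothing in the labels says that libraries of 1 group are separate cultures, so p-values here measure the spread between libraries, which may be technical. Library titles carry the word merged, with no statement of what was merged.

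Clustered protocadherins are cell-surface adhesion proteins by which neurons tell their own processes from those of other cells. In the alpha and gamma subclusters a row of variable exons, each with its own promoter, is spliced to constant exons that all members share, while beta genes lie whole within a single exon. Neurons choose among the A- and B-type promoters by chance, whereas C-type genes at the end of the alpha and gamma rows are used more evenly. In neurons CTCF and cohesin bring a chosen promoter to distant enhancers, and silent promoters carry DNA methylation.

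This layout decides what a bin holds. Alpha gene bodies had a median length of 171.2 kb and gamma gene bodies one of 122.8 kb, since all run on to the shared constant exons, against 3.85 kb for beta. Most bins therefore lie within many gene bodies at once, and the genes are described here by the bin that holds their start. The table lists no pair that joins 2 subclusters (0 of the 22) and no pair of protocadherin bins more than 50 kb apart.

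The promoters of the members are alike in sequence, and the shared element is shown here because members with such promoters lie both in bins that fell and in bins that did not. The promoter table of RefSeq (GRCh38.p14) held 47 of the 53 genes, and the entries not found were PCDHA3, PCDHA13, PCDHB6, PCDHB11, PCDHGA12 and PCDHGC5. The letters were found by comparing the members' promoters with each other, searched on both strands in the window from 250 bases before the start to 50 after it. The alpha form, GATGTCGCT, was in 9 of 13 alpha promoters and in 0.106% of all 34943 promoters. The beta form, GTGGCGCT, was in 13 of 14 beta promoters, against 1.15% of all promoters. The gamma form, GNCGCTGT, was in 17 of 20 gamma promoters, against 4.35% of all promoters, and overlaps the end of the alpha form (5 alpha promoters held it). All forms contain CGCT, which alone was in 69.9% of all promoters.

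For the alpha subcluster, windows of 32 bases before the start are given with CGCT in capitals. In alpha genes with the alpha form, CGCT began 38 to 81 bases before the RefSeq gene start. PCDHA1, PCDHA8 and PCDHA10 stand for the numbered genes, and the C-type genes PCDHAC1 and PCDHAC2 lack the alpha form. So do the numbered genes PCDHA9 and PCDHA11, which start in bins that fell. Of the 32 bases, PCDHA1 and PCDHA8 shared 27 with the most frequent base of alpha promoters at each position and PCDHA10 shared 24, while PCDHAC1 shared 13 and PCDHAC2 shared 18.
PCDHA1 (chr5:140786084-140786115, plus strand): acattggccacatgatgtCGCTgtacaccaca
PCDHA8 (chr5:140841128-140841159, plus strand): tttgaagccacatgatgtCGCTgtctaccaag
PCDHA10 (chr5:140855839-140855870, plus strand): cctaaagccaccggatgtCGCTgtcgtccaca
PCDHAC1 (chr5:140926218-140926249, plus strand): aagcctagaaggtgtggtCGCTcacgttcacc
PCDHAC2 (chr5:140966363-140966394, plus strand): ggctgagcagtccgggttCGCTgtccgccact

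For PCDHA4, the first gene with a promoter entry in the bin of the largest decrease, the 250 bases before the start follow, with the alpha form in capitals.
PCDHA4 (chr5:140806818-140807067, plus strand): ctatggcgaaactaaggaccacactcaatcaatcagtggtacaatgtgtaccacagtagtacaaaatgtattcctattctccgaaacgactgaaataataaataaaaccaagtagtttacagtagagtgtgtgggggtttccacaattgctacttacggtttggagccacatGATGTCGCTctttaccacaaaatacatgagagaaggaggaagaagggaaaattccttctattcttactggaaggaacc

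For the beta subcluster, the windows are drawn from bins that did not pass the test (PCDHB1, PCDHB2 and PCDHB4) and from bins that fell (PCDHB16, PCDHB13 and PCDHB15), with CGCT in capitals. PCDHB1 lacks the beta form and shared 14 of 32 bases with the most frequent ones of the beta promoters, against 24 for PCDHB2 and 28 for PCDHB13.
PCDHB1 (chr5:141051272-141051303, plus strand): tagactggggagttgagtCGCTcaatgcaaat
PCDHB2 (chr5:141094542-141094573, plus strand): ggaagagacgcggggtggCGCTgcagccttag
PCDHB4 (chr5:141121721-141121752, plus strand): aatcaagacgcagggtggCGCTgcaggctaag
PCDHB16 (chr5:141182308-141182339, plus strand): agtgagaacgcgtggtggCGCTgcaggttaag
PCDHB13 (chr5:141213863-141213894, plus strand): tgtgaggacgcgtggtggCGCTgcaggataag
PCDHB15 (chr5:141245312-141245343, plus strand): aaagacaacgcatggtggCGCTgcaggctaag

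For the gamma subcluster, PCDHGA1 and the C-type genes PCDHGC3 and PCDHGC4 start in bins that did not pass, and PCDHGA5, PCDHGA9 and PCDHGB7 in bins that fell. PCDHGB7 lacks the gamma form and shared 9 of 32 bases with the most frequent ones of the gamma promoters, while PCDHGC3 and PCDHGC4 carry it and shared 26 and 18.
PCDHGA1 (chr5:141330401-141330432, plus strand): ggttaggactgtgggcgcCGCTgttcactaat
PCDHGA5 (chr5:141364105-141364136, plus strand): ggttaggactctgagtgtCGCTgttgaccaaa
PCDHGA9 (chr5:141402712-141402743, plus strand): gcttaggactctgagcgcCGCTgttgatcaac
PCDHGB7 (chr5:141417605-141417636, plus strand): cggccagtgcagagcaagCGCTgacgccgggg
PCDHGC3 (chr5:141475878-141475909, plus strand): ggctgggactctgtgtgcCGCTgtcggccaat
PCDHGC4 (chr5:141484950-141484981, plus strand): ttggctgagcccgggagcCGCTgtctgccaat

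Contacts within bins fell in the knockdown across stretches of all 3 subclusters. With edgeR's quasi-likelihood test and Benjamini-Hochberg adjustment over all 89239 pairs, 7 of the 15 contacts within a bin fell (adjusted p under 0.05). The background over all contacts within a bin was 14.3% lower, 8.99% over those of chromosome 5, and 10.5% over all pairs. Of these 7 bins, 3 were alpha, 2 beta and 2 gamma. Their log2 fold changes, knockdown over control, ran from -0.80 to -0.30. None of the 22 pairs was higher past the threshold, against 5.76% of all pairs, and 4.98% with the abundance trend removed (1 at an unadjusted p under 0.05, and 0 with DESeq2). Among only 22 pairs, a count of 0 is near these shares. Because fold changes can depend on contact abundance, the fit was repeated with any such trend removed by a loess curve per library. The count was again 7 of 15, against 5.12% of all contacts within a bin, 3.67% of those of chromosome 5 and 5.97% of all pairs. By subcluster the median log2 fold change was -0.23 in alpha, -0.26 in beta and -0.12 in gamma. Over the 15 bins the median log2 fold change was -0.17 (-0.23 with the trend removed), against 0.02 (0.03) over all 48992 contacts within a bin. Among bins whose level lay in the range of these 15, 8.09% were lower under TMM scaling and 4.34% after trend removal. Without knockdown library 1 the count was 4 under either scaling.

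**Figure D1:**
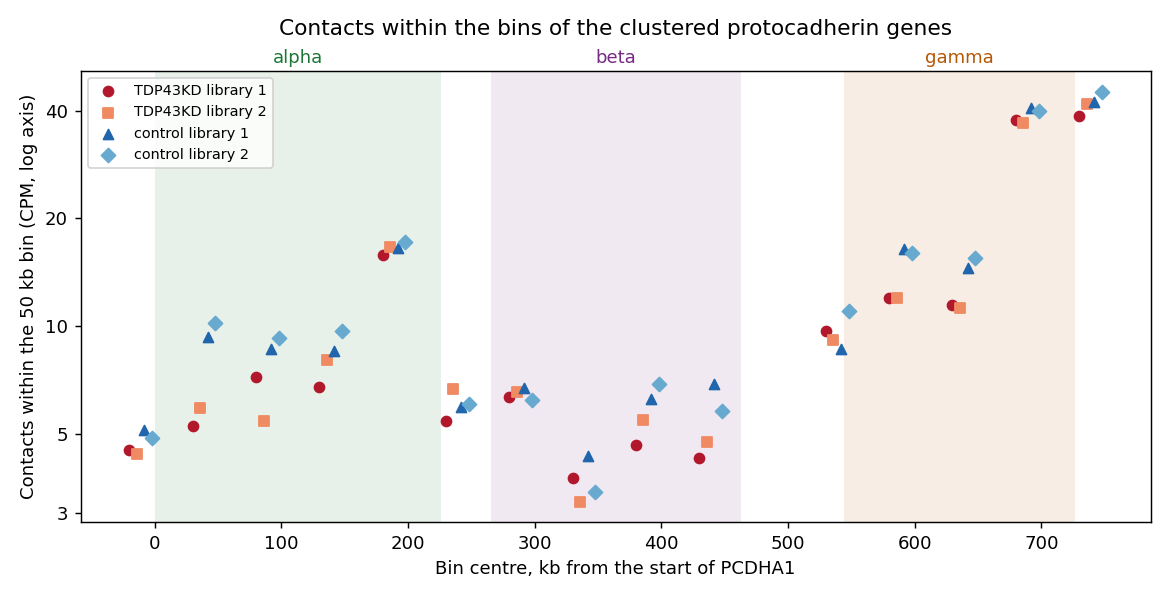
Contacts within each of the 15 bins in CPM (listed contacts scaled to library size by TMM, log axis) against the bin's distance from the start of PCDHA1, 1 point per library and shading for the extent of each subcluster. In the bin of PCDHA3 to PCDHA9 both knockdown libraries lie well below both control libraries (5.60 against 9.76 CPM on average), while in the last alpha bin the libraries overlap.

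The alpha subcluster held the largest decrease. The first alpha bin, 140750001 to 140800000, holds the starts of PCDHA1 and PCDHA2. It had 545 and 652 contacts in the knockdown libraries, against 784 and 748 in control. Scaled to library size that was 4.44 ± 0.0834 CPM in the knockdown and 4.99 ± 0.19 CPM in control (SD, n = 2 each), and the change did not pass (log2 fold change -0.17, SE 0.14, edgeR adjusted p = 0.441). The groups did not overlap, but the difference was small.

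The next bin, 140800001 to 140850000, holds the starts of PCDHA3, PCDHA4, PCDHA5, PCDHA6, PCDHA7, PCDHA8 and PCDHA9. It had 638 and 880 contacts in the knockdown libraries, against 1426 and 1571 in control, or 5.60 ± 0.458 CPM against 9.76 ± 0.62 CPM (SD, n = 2 each). Both knockdown libraries were far below both control libraries. The log2 change came to -0.80 (SE 0.11, edgeR adjusted p = 3.66e-10), and -0.84 with the trend removed (adjusted p = 1.67e-09). It ranged from -0.89 to -0.72 when each library was left out in turn and passed each time. Of all 48992 contacts within a bin, 10 had a fold change at or below it. In terms of level, this bin stood at the 40.3 percentile of all contacts within a bin in the knockdown and at the 57.6 percentile in control.

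The bin of PCDHA10, PCDHA11, PCDHA12 and PCDHA13, 140850001 to 140900000, had 874 and 808 contacts in the knockdown, against 1321 and 1430 in control. Levels were 6.33 ± 1.26 CPM in the knockdown and 8.96 ± 0.458 CPM in control (SD, n = 2 each), with no overlap between the groups. On the log2 scale the change was -0.51 (SE 0.11, edgeR adjusted p = 0.000149; -0.54 with the trend removed). Knockdown library 2 was the lower of the pair, and without it the change did not pass (-0.31, edgeR adjusted p = 0.177).

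The bin of PCDHAC1, 140900001 to 140950000, carries the first C-type alpha gene. It had 820 and 1192 contacts in the knockdown, against 1300 and 1493 in control, or 7.40 ± 0.878 CPM against 9.10 ± 0.844 CPM (SD, n = 2 each). The knockdown libraries were lower, with knockdown library 2 close to control library 1. The log2 fold change of -0.30 passed narrowly (SE 0.10, edgeR adjusted p = 0.0341; -0.33 with the trend removed). The call did not hold without knockdown library 1 (-0.18, adjusted p = 0.53), without control library 2 (-0.20, adjusted p = 0.267) and with DESeq2 (-0.31, adjusted p = 0.10).

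Farther along, contacts did not change past the threshold. The bin of PCDHAC2, 140950001 to 141000000, had 1916 and 2474 contacts in the knockdown, against 2531 and 2652 in control (16.2 ± 0.572 CPM against 16.9 ± 0.475 CPM, SD, n = 2 each). Its log2 fold change was -0.06 (SE 0.07). The last alpha bin, 141000001 to 141050000, holds no gene start, only the end shared by all alpha genes. It had 655 and 995 contacts in the knockdown, against 908 and 934 in control, with overlapping groups and a log2 fold change of 0.02 (SE 0.12; -0.04 with the trend removed). Contacts that join adjoining bins here were listed for the C-type end alone, between the bins of PCDHAC1 and PCDHAC2 and between that of PCDHAC2 and the last alpha bin. The first had 279 and 233 contacts in the knockdown, against 226 and 193 in control, a log2 fold change of 0.50 (SE 0.23, edgeR adjusted p = 0.121). The second had 299 and 282, against 292 and 253, a log2 fold change of 0.30 (SE 0.21, edgeR adjusted p = 0.379). Neither passed.

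Among the beta genes, which encode the whole protein from a single exon, the first 2 bins did not pass and the last 2 fell. The bin of PCDHB1 and PCDHB2, 141050001 to 141100000, had 767 and 970 contacts in the knockdown, against 1027 and 957 in control. The levels were nearly equal, 6.43 ± 0.132 CPM against 6.46 ± 0.354 CPM (SD, n = 2 each; log2 fold change -0.01, SE 0.12). The bin of PCDHB3, PCDHB4 and PCDHB5, 141100001 to 141150000, had 456 and 480 contacts, against 664 and 529, and did not pass (log2 fold change -0.15, SE 0.16). At 3.50 ± 0.381 CPM in the knockdown and 3.89 ± 0.641 CPM in control (SD, n = 2 each) it was the least contacted of the 15 bins in both groups.

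The bin of PCDHB6, PCDHB7, PCDHB8, PCDHB16, PCDHB9, PCDHB10 and PCDHB11, 141150001 to 141200000, had 562 and 815 contacts in the knockdown, against 955 and 1058 in control. Levels were 5.06 ± 0.593 CPM against 6.56 ± 0.442 CPM (SD, n = 2 each), without overlap. Its log2 fold change was -0.37 (SE 0.12, edgeR adjusted p = 0.0236; -0.43 with the trend removed). The call did not hold without knockdown library 1 (-0.26, adjusted p = 0.424), without control library 2 (-0.30, adjusted p = 0.13) and with DESeq2 (-0.39, adjusted p = 0.0571).

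The bin of PCDHB12, PCDHB13, PCDHB14 and PCDHB15, 141200001 to 141250000, had 517 and 704 contacts in the knockdown, against 1056 and 890 in control. Levels were 4.50 ± 0.328 CPM against 6.34 ± 0.796 CPM (SD, n = 2 each), again without overlap. The log2 change came to -0.49 (SE 0.13, edgeR adjusted p = 0.00232; -0.55 with the trend removed). The call did not hold without knockdown library 1 (-0.42, adjusted p = 0.128) and, by little, without control library 1 (-0.37, adjusted p = 0.0526). No contact between adjoining beta bins was listed, out of 3 possible.

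The gamma subcluster held 2 of the 3 decreases that passed with every library left out in turn. Its first bin, 141300001 to 141350000, holds the starts of PCDHGA1, PCDHGA2 and PCDHGA3 and also TAF7, which encodes a subunit of the general transcription factor TFIID, and SLC25A2, which encodes a mitochondrial carrier. It had 1176 and 1357 contacts in the knockdown, against 1324 and 1702 in control, with overlapping levels (9.42 ± 0.417 CPM against 9.85 ± 1.69 CPM, SD, n = 2 each). On the log2 scale the change was -0.07 (SE 0.10).

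The bin 141350001 to 141400000 holds 10 gene starts, more than any other bin of the locus, from PCDHGB1 and PCDHGA4 to PCDHGA8 and PCDHGB5. It had 1451 and 1786 contacts in the knockdown, against 2511 and 2465 in control. Levels were 12.0 ± 0.0163 CPM against 16.2 ± 0.291 CPM (SD, n = 2 each), without overlap. An SD this small from 2 libraries lies below counting error and is no measure of the true spread. Its log2 fold change was -0.43 (SE 0.08, edgeR adjusted p = 6.23e-06; -0.43 with the trend removed). It stayed between -0.45 and -0.43 with each library left out and passed each time.

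The bin of PCDHGA9, PCDHGB6, PCDHGA10, PCDHGB7, PCDHGA11 and PCDHGA12, 141400001 to 141450000, had 1385 and 1676 contacts in the knockdown, against 2223 and 2391 in control. Levels were 11.4 ± 0.121 CPM against 15.0 ± 0.7 CPM (SD, n = 2 each). The groups were again clearly apart, with a log2 fold change of -0.40 (SE 0.08, edgeR adjusted p = 5.58e-05; -0.40 with the trend removed). With each library left out it ran from -0.46 to -0.35 and passed each time.

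The C-type and constant end of the gamma row was the most contacted stretch of the locus in both groups, and did not pass. The bin of PCDHGC3, PCDHGC4 and PCDHGC5, 141450001 to 141500000, had 4567 and 5490 contacts in the knockdown, against 6231 and 6135 in control (37.3 ± 0.574 CPM against 40.3 ± 0.64 CPM, SD, n = 2 each). The groups did not overlap with TMM scaling, but the sign of the change depended on the scaling, with log2 fold changes of -0.11 (SE 0.06, edgeR adjusted p = 0.177) and 0.04 with the trend removed. The bin 141500001 to 141550000 holds the shared gamma end and part of DIAPH1, which encodes a formin that assembles actin. It had 4690 and 6224 contacts, against 6462 and 6966. Its log2 fold change was -0.12 (SE 0.06, edgeR adjusted p = 0.147) and 0.05 with the trend removed. With TMM scaling it passed without control library 1 (-0.18, adjusted p = 0.00765).

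All 4 adjoining pairs of gamma bins were listed, and none passed. The first, between the bins of PCDHGA3 and PCDHGB1, had 206 and 266 contacts in the knockdown, against 233 and 224 in control. Scaled to library size that was 1.75 ± 0.0615 CPM against 1.49 ± 0.0488 CPM (SD, n = 2 each), higher in the knockdown without overlap, though it did not pass. The pair of the 2 bins that fell had 208 and 222 contacts in the knockdown, against 236 and 284 in control. The pair from there to the C-type bin had 226 and 286, against 334 and 327. In the same order their log2 fold changes were 0.23 at the start of the row, -0.08, -0.18, and 0.15 between the C-type bin and the last one (SE 0.10 to 0.22). The last of these had 965 and 1352 contacts in the knockdown, against 1121 and 1248 in control, with overlapping groups. The pair from the last gamma bin to the next bin, within DIAPH1, is the only listed pair that leaves the locus. It had 271 and 376 contacts in the knockdown, against 265 and 301 in control (log2 fold change 0.37, SE 0.21, edgeR adjusted p = 0.225). So of the 7 contacts between bins, 0 were lower and 0 higher past the threshold, against backgrounds of 5.84% and 3.76% of all contacts between bins (7.01% and 1.44% with the trend removed). At an unadjusted p under 0.05 the counts were 0 and 1, and DESeq2 called 0 of either.

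**Figure D2:**
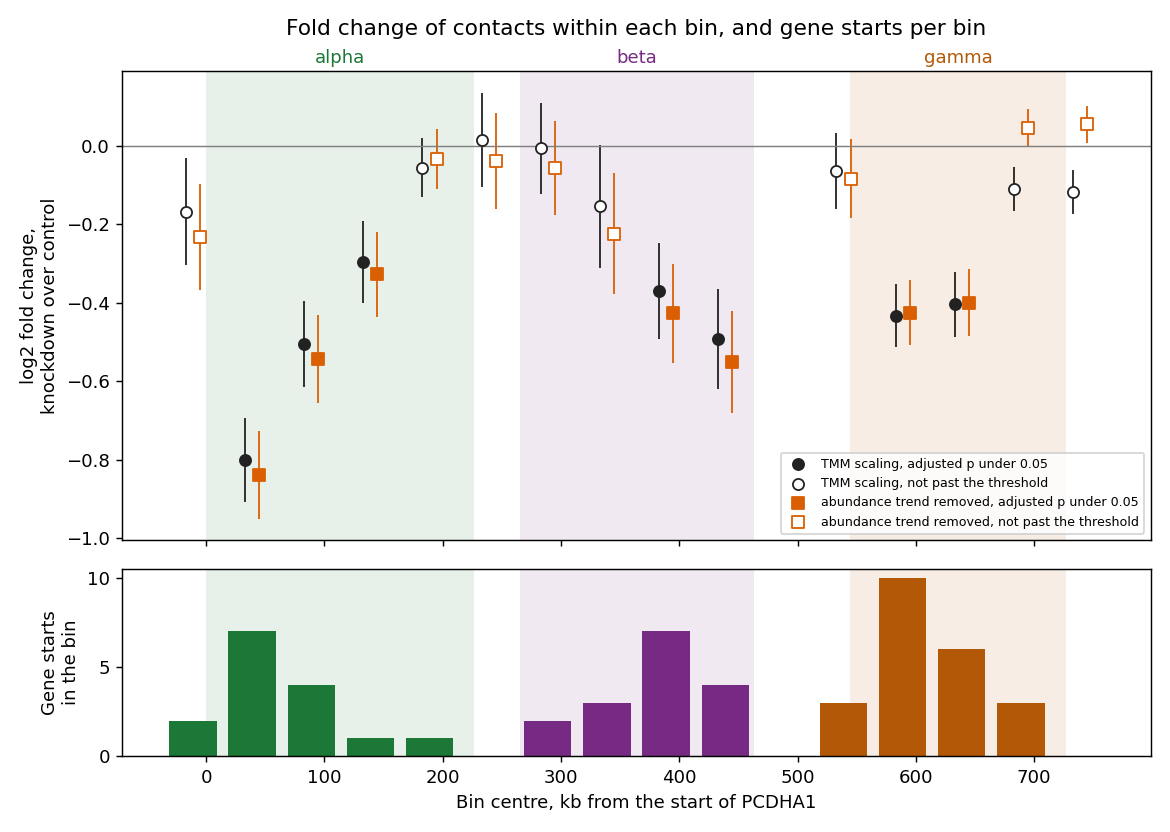
Upper panel, log2 fold change (knockdown over control) of contacts within each bin with its standard error, under TMM scaling and with the abundance trend removed, against distance from the start of PCDHA1. Lower panel, number of protocadherin gene starts in each bin; the 7 bins that fell hold 39 of the 53 starts.

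Most of the genes start in a bin that fell. The 7 bins that fell hold 39 of the 53 gene starts, with 1 to 10 starts a bin, and the 8 others hold 14, with 0 to 3 a bin. Of all protein-coding genes with a promoter entry that start in a listed bin, 37% start in a lower one, and 10.7% with the trend removed. The like count among the members is 34 of the 47 with a promoter entry. By subcluster, 12 of 15 alpha genes, 11 of 16 beta genes and 16 of 22 gamma genes start in a bin that fell, and the counts were the same with the trend removed. Genes of a bin share 1 measurement, so these counts describe the 15 bins and are not separate observations. The shared promoter element was not limited to those bins. Of promoters with an entry, 28 of 34 in bins that fell and 11 of 13 in the other bins held the form of their subcluster.

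Ratios between bins of the same library need no scaling between libraries, but they do not remove a trend with abundance. In alpha, contacts in the bins with a numbered gene start were set against contacts in the bins with C-type starts or constant exons only. The latter include the bin of PCDHAC1, which itself fell. Contacts in the numbered bins came to 60.7% and 50.2% of the others in the knockdown libraries, against 74.5% and 73.8% in control. In gamma the same ratio was 43.3% and 41.1% in the knockdown, against 47.7% and 50.1% in control. The gamma bins hold other sequence too, with part of DIAPH1 in the last bin and TAF7 and SLC25A2 in the first. The gamma ratio is therefore not one of protocadherin exons alone. It also sets bins of unlike level against each other. In control the C-type and constant bins of gamma stood at 40.3 and 43.7 CPM, and the numbered ones at 9.85 to 16.2 CPM. In both subclusters both knockdown libraries were below both control libraries. The division of the bins was made with the fold changes known, so these ratios describe the pattern and carry no test. Summed over its bins, alpha held 56.5 and 58.7 CPM (of all contacts within bins) in the knockdown, against 61.5 and 63.7 CPM in control. For beta the values were 23.9 and 24.9 in the knockdown, against 27.5 and 24.8 in control, and the groups overlapped. For gamma they were 137.5 and 138.6, against 139.3 and 141.9.

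**Figure D3:**
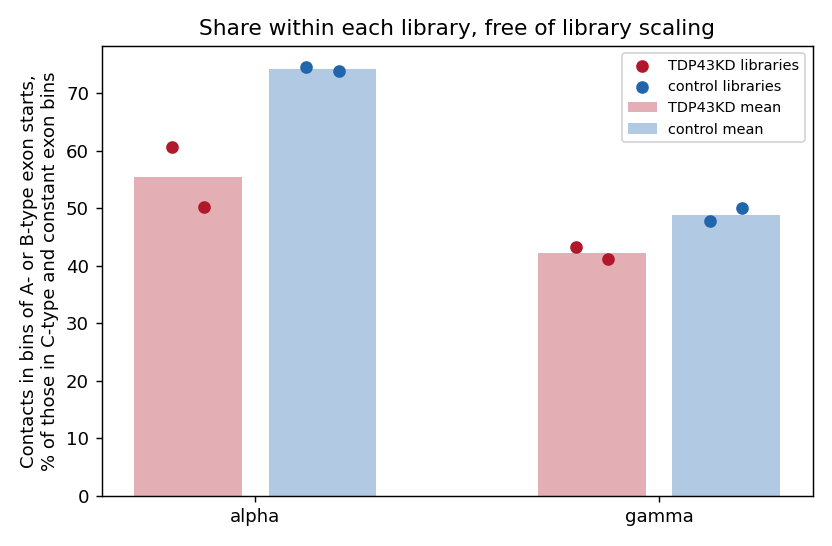
Contacts within the bins that hold A- or B-type (numbered) gene starts as a percentage of contacts within the bins of C-type starts and constant exons, for alpha and gamma, with points for libraries and bars for the mean of 2. In alpha the knockdown libraries lie at 60.7% and 50.2% and the control libraries at 74.5% and 73.8%.

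Without regard to the test, 10 of the 15 contacts within a bin had both knockdown libraries below both control libraries with TMM scaling, against 28.5% of all contacts within a bin. With the trend removed the count was 8, against 21.6%. These counts include the 7 bins that fell. Of the 7 contacts between bins, 3 had both knockdown libraries above both control libraries with TMM scaling and 1 had both below, against 27.8% and 23.8% of all contacts between bins.

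Around the locus, which bins passed depended on the scaling. Among 41 contacts within bins that hold no clustered protocadherin and lie in the locus or within 1 Mb of it, 13 were lower and 1 higher with TMM scaling, against 14.3% and 7.4% of all contacts within a bin. After trend removal 1 was lower and 7 were higher, against 5.12% and 7.89%. Over all 117 pairs there, between bins included, 13 were lower and 7 higher with TMM scaling, against 10.5% and 5.76% of all pairs. With the trend removed 2 were lower and 10 higher, against 5.97% and 4.98% of all pairs. The 13 lower came to 1 without knockdown library 1 and 2 without knockdown library 2. The median log2 fold change of the 41 bins was -0.10 under TMM scaling and 0.07 after trend removal. Their contact levels were mostly higher than at the locus, with a median over the 4 libraries of 29.7 CPM against 7.68 CPM. The lower bin is the one between beta and gamma, 141250001 to 141300000. It had 368 and 426 contacts in the knockdown, against 696 and 503 in control (log2 fold change -0.48 with the trend removed, edgeR adjusted p = 0.0367; -0.40 and adjusted p = 0.0751 with TMM). Among these 41 bins the largest increase was in a bin of ANKHD1, which encodes an ankyrin repeat protein, upstream of the locus, 140450001 to 140500000. It had 620 and 709 contacts in the knockdown, against 476 and 499 in control (log2 fold change 0.64, edgeR adjusted p = 0.000492). Adjoining bins were listed as pairs for 2 of 5 cases in alpha, 0 of 3 in beta and 4 of 4 in gamma, against 35 of 38 (92.1%) in these surroundings and 43.5% over all chromosomes.

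**Figure D4:**
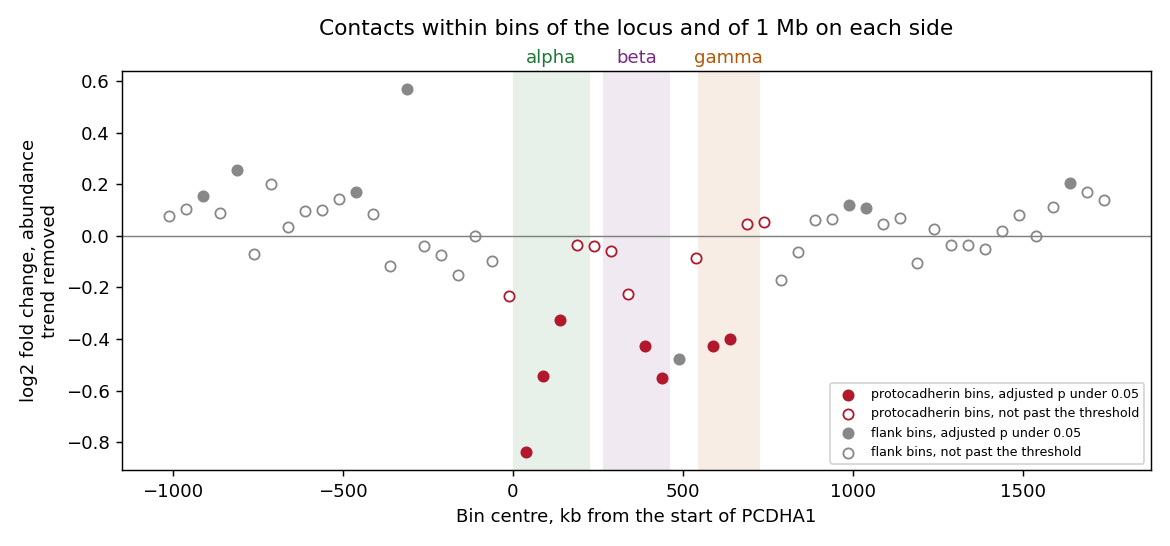
Log2 fold change (knockdown over control, abundance trend removed) of contacts within bins of the locus and of 1 Mb on each side, against distance from the start of PCDHA1, with filled points past the threshold. Of the 15 protocadherin bins 7 are past the threshold, all below 0, and of the 41 other bins 1 is below 0 and 7 above.

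Protocadherins outside the clusters have promoters and gene bodies of their own and are scattered over the genome, PCDH1 and PCDH12 being close to the gamma end. Of 12 such genes, 4 overlapped a lower pair and 0 a higher one (3 at an unadjusted p under 0.05, edgeR, and 0 past the threshold with DESeq2). The background was 45.7% of protein-coding genes for lower pairs and 15.8% for higher ones. With the trend removed 3 overlapped a lower pair (PCDH8, PCDH15 and PCDH17), against 25.4%, and without knockdown library 1 the count was 1 with TMM scaling. At PCDH17 a bin had 1366 and 1677 contacts in the knockdown, against 2286 and 2189 in control, a log2 fold change of -0.37 (SE 0.08, edgeR adjusted p = 0.000311), and -0.37 with the trend removed. PCDH8 had one of -0.26, and -0.17 with the trend removed (adjusted p = 0.0483, edgeR). The lower bins of PCDH1 (-0.29) and PCDH12 (-0.20) did not pass with the trend removed, at 0.05 and -0.10.

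Of 17 genes for proteins that bind or silence the clusters, 16 overlapped a listed pair. They include CTCF, cohesin and its loaders and the silencing factors SMCHD1 and SETDB1. Lower pairs were found at 10 of them and higher pairs at 3, with both at 2, against backgrounds of 45.7% and 15.8% of protein-coding genes. DESeq2, also without trend removal, called a higher pair at 0 of them. With the trend removed 5 had a lower and 0 a higher pair, against 25.4% and 14.5% (3 had a higher pair at an unadjusted p under 0.05, edgeR). At EHMT1, a histone methyltransferase gene, contacts within a bin numbered 4616 and 5566 in the knockdown, against 7452 and 8722 in control (log2 fold change -0.48, SE 0.06, edgeR adjusted p = 1.98e-12; -0.29 with the trend removed). Pairs of WAPL, which encodes the factor that releases cohesin (0.52), of DNMT3B, a DNA methyltransferase gene (0.44), and of SETDB1 (0.41) were higher with TMM scaling. With the trend removed their log2 fold changes were 0.44, 0.37 and 0.34 and did not pass (edgeR adjusted p = 0.108, 0.0893 and 0.123). At CTCF, named here in addition to the 4 largest, a bin had a log2 fold change of -0.33 (adjusted p = 5.44e-07, edgeR; -0.18 with the trend removed).

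Of 16 genes for proteins that bind or act downstream of clustered protocadherins, 5 had a lower and 5 a higher pair with TMM scaling. The backgrounds were 45.7% and 15.8% of protein-coding genes. With the trend removed the counts were 4 and 3, against 25.4% and 14.5% of protein-coding genes, and without knockdown library 1 the count of lower was 3 with TMM scaling. Contacts between bins of PRKCA, a protein kinase C gene, 350 kb apart numbered 295 and 304 in the knockdown, against 169 and 183 in control (log2 fold change 0.96, SE 0.23, edgeR adjusted p = 0.000577; 0.87 with the trend removed). A pair at AXIN1, which encodes a scaffold of Wnt signalling, had 129 and 208 contacts in the knockdown, against 359 and 269 in control (log2 fold change -0.73, edgeR adjusted p = 0.0153; -0.82 with the trend removed). The higher pairs of FYN, a tyrosine kinase gene (0.71), and CYFIP2, of the actin-regulating WAVE complex (0.57), had log2 fold changes of 0.61 and 0.49 with the trend removed and did not pass (edgeR adjusted p = 0.0696 and 0.123).

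Over the listed pairs the knockdown libraries held 115168160 and 142424414 contacts and the control libraries 158400914 and 163147992. The bin of TARDBP, which encodes TDP-43, had 3974 and 4891 contacts in the knockdown, against 5999 and 5729 in control. The log2 change was -0.22 with TMM scaling (SE 0.06, edgeR adjusted p = 0.00265). It did not pass with the trend removed (-0.08, edgeR adjusted p = 0.326). Since an shRNA acts on RNA, contact counts check neither the knockdown nor the identity of the line. Exons of neighbouring protocadherins resemble each other, and the sources used here do not say how reads that fit several members were counted, so assignment among such bins is uncertain.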

How the data were processed

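Contacts were measured by Micro-C in 2 TDP43KD and 2 control libraries. HiC-Pro and the hg38 build are named in the submitters' processing notes, without a HiC-Pro version. The deposited table holds raw contact counts per pair of 50 kb bins. Per the file headers it also holds the authors' log2 abundance and log2 fold change, a score (the F statistic) and p-values. It lists the more abundant pairs only, so totals are not the full depth.

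All 89239 pairs entered an edgeR fit (version 4.0.16, with limma 3.58.1 under R 4.3.3) using TMM scaling and the functions glmQLFit and glmQLFTest, with Benjamini-Hochberg adjustment over all pairs and a threshold of 0.05. filterByExpr removed 0 pairs. CPM values use TMM-scaled library sizes. The trend with abundance was removed by a loess fit per library (span 0.3). The fits were also run on simulated counts with a common dispersion for all pairs and no trend with abundance. That run checks the code and not the calls made here. Other alternatives were DESeq2 1.42.0, TMM within distance classes, other filters, separate fits within and between bins, a replicate block, a threshold of 0.01, the authors' table and each library left out. The trend removal combined with each library left out was added after seeing the data.

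Gene bodies came from RefSeq GRCh38.p14 (protein-coding), and a gene counted with a pair when its body overlapped either bin. Named were all members, all 22 pairs and the 4 genes of each list with the greatest change at most. The members and lists were chosen with earlier results of these data known. The deviations of same-numbered libraries correlated with r = 0.0192 over pairs. Python 3.11.15, pandas 2.3.3, numpy 2.4.6 and matplotlib 3.10.9 were used. Intervals for counting error are not given, since over the pairs as a whole the spread between libraries exceeded it. In single bins the SD of 2 libraries can lie below counting error.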

Additional observations from a re-analysis of the deposited data

How the results depend on the processing

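Every one of the 7 decreases at the locus kept its direction under all alternatives. Of the 63 values from settings other than left-out libraries, 59 stayed past the threshold. Not all of these settings were separate checks. With no filter, and with a mean count of at least 200, the same 89239 pairs were fitted, so those values could not differ. The authors' deposited values nearly repeat those with the trend removed. With DESeq2, and at a threshold of 0.01, 5 pairs of the locus were lower in place of 7, with alpha at 2 in place of 3 and beta at 1 in place of 2. Among the 15 pairs not called, the sign turned on removing the trend, and likewise in the authors' deposited table, within the bins at 141000001 (-0.0390 and -0.0387), 141450001 (0.0449 and 0.0450) and 141500001 (0.0548 and 0.0549). Within the bin at 141050001 it turned with TMM within distance classes and with contacts within and between bins fitted apart (0.00514 and 0.00514).

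With each library left out, lower pairs numbered 4 to 7 at the locus (all of them within a bin), 0 to 2 in beta, 1 to 17 in the surroundings, 1 to 6 non-clustered protocadherin genes, 5 to 11 regulators and 3 to 7 partners. With the trend removed too, they numbered 4 to 7, 1 to 3 in alpha, 0 to 2 in beta, 0 to 2 in the surroundings, 0 to 3 non-clustered genes, 1 to 6 regulators and 1 to 5 partners. In the surroundings 13 pairs were lower, against 2 after trend removal, 2 in the authors' deposited table and 8 at a threshold of 0.01. Lower regulators numbered 10, against 5 after trend removal and 5 in the authors' deposited table. The replicate numbers do not pair the libraries by the labels, and with the replicate block 7 pairs of the locus were again lower. The causes of these shifts were not tested. Taken over both scalings together, log2 fold changes with each library left out lay on both sides of 0 for 9 pairs not called. Within a bin they ran from -0.0973 to 0.00424 at 140950001, -0.203 to 0.158 at 141000001, -0.104 to 0.0368 at 141050001, -0.374 to 0.0109 at 141100001, -0.253 to 0.123 at 141300001, -0.125 to 0.0748 at 141450001 and -0.179 to 0.107 at 141500001. Between bins they ran from -0.00905 to 0.476 (140950001 with 141000001) and from -0.314 to 0.0569 (141350001 with 141400001). Within the bins at 141450001 and 141500001 the sign differed between the scalings only. Under either scaling alone it was the same whichever library was left out. Each fit without a library leaves 1 in a group, which is assumed to vary like the other group.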
